A study of Mus musculus with 4 samples.

Results

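The aryl hydrocarbon receptor (AhR) genes examined in IMQ-treated dorsal skin were the 6 genes *Ahr*, *Arnt*, *Ahrr*, *Cyp1a1*, *Cyp1b1* and *Tiparp*, chosen by symbol among the 24346 genes in the files. The symbol of each was found once in every library, and all 6 were among the 15896 genes tested. Male C57BL/6 mice, 8 weeks old at the start, were fed for 3 weeks a NASH diet, rich in fat, cholesterol and sucrose and with added bile salt, without 7KC in the Cont-IMQ group or with 7-ketocholesterol (7KC), an oxidized cholesterol, in the 7KC-IMQ group. In both groups, imiquimod (IMQ) cream, which induces psoriasis-like dermatitis, was applied for 1 day before the dorsal skin was collected. Each group had 2 libraries. Because IMQ and the NASH diet were common to all 4, skin without IMQ and skin of mice on ordinary chow are not part of the comparison. The sources used here do not say whether a library holds 1 animal or several, so the spread between libraries cannot be read as the spread between animals. The comparison asks whether dietary 7KC changed the expression of these genes in the lesion.

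AhR is a ligand-activated transcription factor of the bHLH-PAS family that binds dioxins, polycyclic hydrocarbons and tryptophan metabolites. In the resting cell it is held in the cytosol by HSP90 and the co-chaperone p23. With a ligand it enters the nucleus, pairs with ARNT and binds xenobiotic response elements, whose core letters are GCGTG, near genes such as *Cyp1a1*, *Cyp1b1*, *Ahrr* and *Tiparp*. *Ahrr* and *Tiparp* act back on the receptor as its repressor and as an ADP-ribosyltransferase, respectively. In skin, AhR is known in keratinocytes, Langerhans cells and T cells, and it is known for its part in barrier formation and inflammation.

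Promoters were searched for the letters GCGTG on both strands, because this is the DNA sequence through which AhR and ARNT act. The same letters also form part of the hypoxia response element of HIF factors, so a match cannot tell these factors apart. RefSeq promoter windows (GRCm38.p6, 250 bases before to 50 after the start) were found for 5 of the 6 genes, all but *Ahr*. *Ahrr* held 3 matches, and *Cyp1a1*, *Cyp1b1*, *Tiparp* and *Arnt* held 1 each, whereas 46.8% of the 15048 windows of genes tested held at least 1 match and 6.61% held 3 or more. The stretches around the matches of the target genes are shown 5′ to 3′ on the strand of the gene, with the matches in capitals (CACGC is the same core on the opposite strand). They lie at chr9:57697519-57697603 (plus strand, *Cyp1a1*), chr17:79715093-79715177 (minus strand, *Cyp1b1*), chr3:65528237-65528321 (plus strand, *Tiparp*) and chr13:74292314-74292478 (minus strand, *Ahrr*).
Cyp1a1: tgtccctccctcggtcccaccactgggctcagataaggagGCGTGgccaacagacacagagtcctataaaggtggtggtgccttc
Cyp1b1: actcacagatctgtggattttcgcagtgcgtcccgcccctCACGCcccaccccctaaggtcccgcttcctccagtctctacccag
Tiparp: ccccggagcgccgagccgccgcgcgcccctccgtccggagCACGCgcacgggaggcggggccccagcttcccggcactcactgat
Ahrr: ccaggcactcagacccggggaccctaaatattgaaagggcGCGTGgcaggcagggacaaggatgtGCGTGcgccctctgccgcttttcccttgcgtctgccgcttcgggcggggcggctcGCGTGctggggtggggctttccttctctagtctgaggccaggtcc
The match of *Cyp1a1* begins 54 bases before the RefSeq start, which lies inside the longer span that GENCODE M21 gives this gene, that of *Cyp1b1* 76 bases and that of *Tiparp* 170 bases before it. In *Ahrr* the matches begin 107, 82 and 27 bases before the start. A match is a description of these letters in this window and not a binding site, and sequence outside the window was not searched.

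Expression is given as FPKM, a level scaled to exon length and to the number of mapped fragments, as the authors calculated it. No read counts were used here. The smallest values rise in steps worth 1 read each, which put the depth at an estimated 14980000 to 16200000 mapped reads per library. Keratinocyte markers stood at 20450 to 28850 summed FPKM, with none of the 7 at 0, so the defining markers of skin were present. Skeletal muscle markers were also present (6522 to 7918 summed FPKM). The 6 liver markers summed to 108.5 to 202.2 FPKM, mostly *Cyp2e1*, the most abundant (105 to 197 FPKM). The liver gene *Alb*, chosen outside the naming rule given below, was between 0.538 and 1.93 FPKM. Cont-IMQ replicate 2 stood apart in the 13 hair follicle markers, with 1609 summed FPKM against 138 in Cont-IMQ replicate 1 and 480 and 425 in 7KC-IMQ replicates 1 and 2. In bulk skin, fewer cells of a type and less RNA per cell cannot be told apart. The groups were compared by limma on log2(FPKM + 1), a scale on which fold changes of weakly expressed genes shrink, with Benjamini-Hochberg adjustment over the 15896 genes. For a single gene, exact permutation of so few libraries gives a two-sided p-value of 0.33 at the least.

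None of the 6 AhR genes passed the adjusted threshold of 0.05 by limma, where 0.00629% of all genes did (1 gene, the microRNA gene *Mir24-2*). None of the 6 had an unadjusted p-value under 0.05 either, whereas 7.5% of all genes did with a higher level under 7KC and 5.47% with a lower one. *Cyp1a1* was the only member whose groups did not overlap, and it was higher in the 7KC-IMQ group. Over all genes, 23.9% were higher and 22.9% lower without overlap, so 1 of 6 is not above the background. The difference between the groups was positive for 4 members and negative for 2, with a median of 0.08 on the log2(FPKM + 1) scale against -0.0056 over all genes tested.

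**Figure D1:**
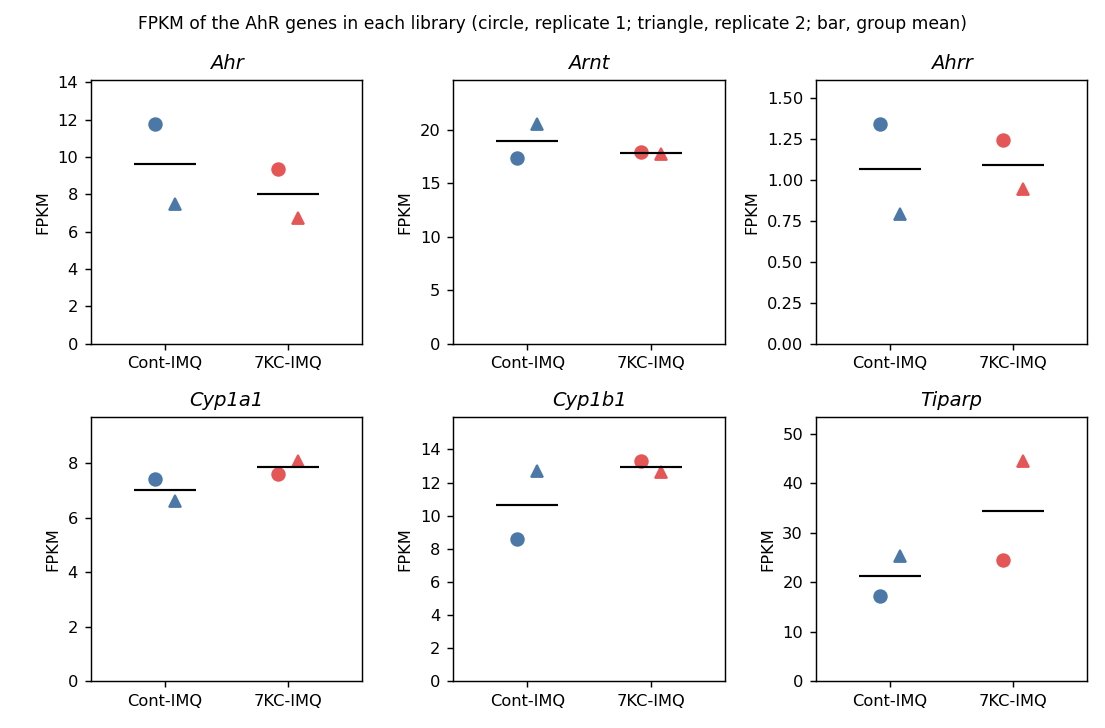
FPKM of each of the 6 AhR genes (vertical axis from 0) in the Cont-IMQ (blue) and 7KC-IMQ (red) libraries, with circles for replicate 1, triangles for replicate 2 and bars for the group mean. The symbols of both groups overlap in every panel except *Cyp1a1*, and 7KC-IMQ replicate 2 stands apart for *Tiparp* at 44.5 FPKM.

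The receptor gene *Ahr* (ENSMUSG00000019256.17) lies on chromosome 12 from 35497974 to 35535038, on the minus strand of GRCm38, the assembly also called mm10, in the GENCODE M21 annotation used for all 6 genes. It measured 11.8 FPKM in Cont-IMQ replicate 1, 7.45 in Cont-IMQ replicate 2, 9.37 in 7KC-IMQ replicate 1 and 6.72 in 7KC-IMQ replicate 2. The 7KC-IMQ libraries lay at both sides of Cont-IMQ replicate 2, and the groups overlapped. The means were 9.62 ± 3.06 FPKM (SD, n = 2) and 8.04 ± 1.88 FPKM (SD, n = 2), a log2 difference of -0.22 (standard error 0.26, 95% interval -0.89 to 0.46, adjusted p = 0.753 in limma). Without Cont-IMQ replicate 1, the difference turned to 0.08. The data therefore give no direction for *Ahr*, and its interval still holds both a fall of 0.89 and a rise of 0.46 on the log2 scale.

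*Arnt* (ENSMUSG00000015522.18, chromosome 3, 95434388 to 95497240, plus strand) encodes the partner that AhR shares with the HIF factors. It was the steadiest of the 6 genes and measured 17.4 FPKM in Cont-IMQ replicate 1, 20.6 in Cont-IMQ replicate 2, 17.9 in 7KC-IMQ replicate 1 and 17.7 in 7KC-IMQ replicate 2. The highest library was only 1.18 times the lowest. The log2 difference was -0.08 (standard error 0.11, 95% interval -0.36 to 0.20, adjusted p = 0.772 in limma), and it turned to 0.03 without Cont-IMQ replicate 2. A change of *Arnt* beyond 0.36 in either direction lies outside this interval.

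*Ahrr* (ENSMUSG00000021575.16, chromosome 13, 74211118 to 74292331, minus strand), the repressor that competes with AhR for ARNT, was the least abundant member in every library. It measured 1.34 FPKM in Cont-IMQ replicate 1, 0.795 in Cont-IMQ replicate 2, 1.24 in 7KC-IMQ replicate 1 and 0.943 in 7KC-IMQ replicate 2, from an estimated 55 to 93 reads per library. Both 7KC-IMQ libraries lay between the Cont-IMQ libraries. The log2 difference was 0.025 (standard error 0.18, 95% interval -0.44 to 0.49, adjusted p = 0.967 in limma), and its sign was negative without 7KC-IMQ replicate 1 (-0.08), without Cont-IMQ replicate 2 (-0.17) and with equal FPKM sums (-0.013).

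*Ahr* and *Ahrr* were each higher in replicate 1 than in replicate 2 of both groups. *Ahr* was 1.58 times as high in replicate 1 as in replicate 2 of the Cont-IMQ group and 1.40 times as high in the 7KC-IMQ group. For *Ahrr* the same ratios were 1.69 and 1.32. The level of *Ahrr* relative to *Ahr* was 0.114 and 0.107 in the Cont-IMQ libraries and 0.133 and 0.14 in the 7KC-IMQ libraries, higher with 7KC without overlap, a description with no test. It was one of several ratios calculated, and *Ahrr* rested on an estimated 55 to 93 reads per library. Levels of single genes were often without overlap too (23.9% higher and 22.9% lower over all genes). The level of *Ahr* relative to *Arnt* ranged from 0.362 to 0.678. All 6 Langerhans cell and MHC class II markers were likewise higher in replicate 1 of both groups, with 1355 against 960 summed FPKM in the Cont-IMQ group and 1338 against 992 in the 7KC-IMQ group, and none of them was at 0. The same order held for 5 of the 7 fibroblast markers (3531 against 2590 and 3316 against 2916 summed FPKM), for 2 of the 6 T cell markers (33.3 against 29.9 and 23.6 against 22.1), and for 2 of the 7 sebaceous gland markers (550 against 429 and 642 against 641). In no other marker list did the summed FPKM have this order, although 3 of 7 macrophage and monocyte markers and 1 of 7 keratinocyte markers had it. The part of the marker lists in the levels of *Ahr* and *Ahrr* was not tested.

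**Figure D2:**
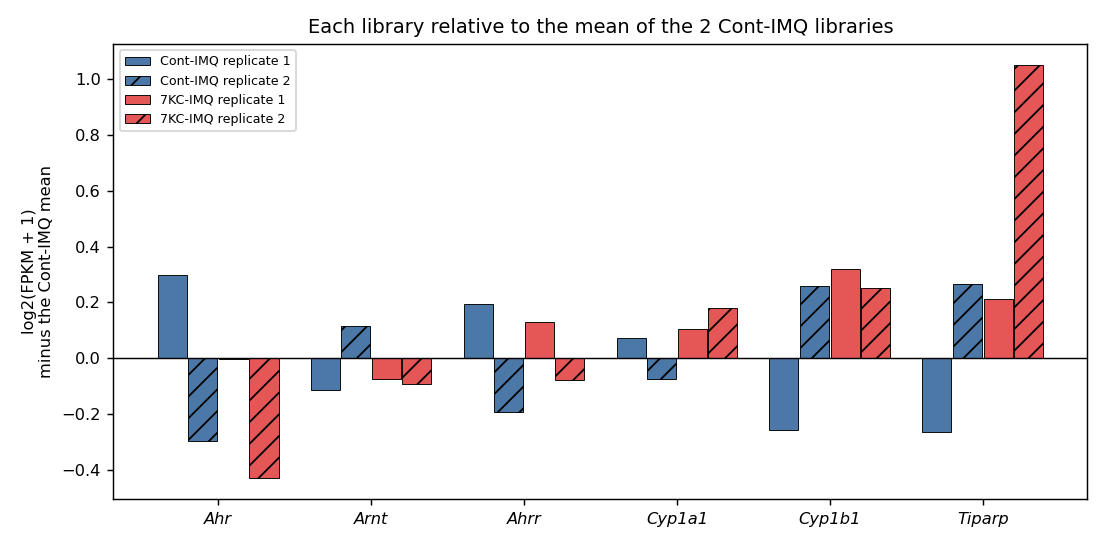
Level of each AhR gene in each library on the log2(FPKM + 1) scale (vertical axis) minus the mean of the Cont-IMQ libraries, with plain bars for replicate 1 and hatched bars for replicate 2. *Ahr* and *Ahrr* are lower in the hatched bar of either group, *Cyp1b1* is low only in Cont-IMQ replicate 1, and *Tiparp* is highest in 7KC-IMQ replicate 2.

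*Cyp1a1* (ENSMUSG00000032315.6, chromosome 9, 57687928 to 57703824, plus strand) encodes a cytochrome P450 that oxidizes AhR ligands, and it is the target most often used to report AhR activity. It measured 7.44 FPKM in Cont-IMQ replicate 1, 6.62 in Cont-IMQ replicate 2, 7.63 in 7KC-IMQ replicate 1 and 8.09 in 7KC-IMQ replicate 2, from an estimated 250 to 309 reads per library. The groups did not overlap, but 7KC-IMQ replicate 1 was close to Cont-IMQ replicate 1. The means were 7.03 ± 0.579 FPKM (SD, n = 2) and 7.86 ± 0.324 FPKM (SD, n = 2), a ratio of 1.12. The log2 difference was 0.14 (standard error 0.10, 95% interval -0.13 to 0.42, adjusted p = 0.605 in limma), and it stayed between 0.07 and 0.22 when any single library was omitted. The interval leaves out a doubling. With equal FPKM sums the difference was 0.0713. The FPKM of all genes summed to 651015 and 630272 in Cont-IMQ replicates 1 and 2 and to 654666 and 702218 in 7KC-IMQ replicates 1 and 2. *Cyp1a1* ranked the libraries in the same order as these sums. *Cyp1a2*, its neighbor in the same subfamily and a typical liver enzyme, was between 0 and 0.0391 FPKM in the 4 libraries and was not tested.

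*Cyp1b1* (ENSMUSG00000024087.4, chromosome 17, 79701537 to 79715061, minus strand) encodes a related P450 that is typical of tissues outside the liver. It measured 8.57 FPKM in Cont-IMQ replicate 1, 12.7 in Cont-IMQ replicate 2, 13.3 in 7KC-IMQ replicate 1 and 12.6 in 7KC-IMQ replicate 2. Cont-IMQ replicate 1 was low and the other 3 libraries were close together. The log2 difference of 0.29 (standard error 0.19, 95% interval -0.21 to 0.79, adjusted p = 0.572 in limma) rested on that library, since it was 0.03 without Cont-IMQ replicate 1 and 0.54 without Cont-IMQ replicate 2. Cont-IMQ replicate 1 was also the lowest library in each of the 13 hair follicle markers (138 summed FPKM against 425 to 1609) and in 4 of the 6 adipocyte markers (1599 against 1817 to 2425 for all 6), none of which was at 0. Of the other adipocyte markers, *Fabp4*, the most abundant, was lowest in 7KC-IMQ replicate 2 (762 FPKM) and *Lep* in Cont-IMQ replicate 2 (1.16 FPKM). Their part in the level of *Cyp1b1* was not tested. *Cyp1b1* exceeded *Cyp1a1* in every library, by 1.15 to 1.92 times.

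*Tiparp* (ENSMUSG00000034640.9, chromosome 3, 65528410 to 65555518, plus strand), also called PARP7, encodes the ADP-ribosyltransferase that dampens AhR. It had the largest difference of the 6 genes, and also the largest spread. It measured 17.3 FPKM in Cont-IMQ replicate 1, 25.3 in Cont-IMQ replicate 2, 24.4 in 7KC-IMQ replicate 1 and 44.5 in 7KC-IMQ replicate 2. 7KC-IMQ replicate 2 stood above the other 3 libraries, while 7KC-IMQ replicate 1 lay below Cont-IMQ replicate 2, so the groups overlapped. The means were 21.3 ± 5.72 FPKM (SD, n = 2) and 34.4 ± 14.2 FPKM (SD, n = 2), a ratio of 1.62. The log2 difference was 0.63 (standard error 0.33, 95% interval -0.25 to 1.52, adjusted p = 0.498 in limma). It was 0.21 without 7KC-IMQ replicate 2 and was 1.05 without 7KC-IMQ replicate 1. The size of this difference exceeded that of 97.3% of the genes tested, but its interval includes 0. The ratio of the group means, 1.62, was above the ratio between the Cont-IMQ libraries (1.47) and below that between the 7KC-IMQ libraries (1.82).
Of the other AhR target genes listed, *Ptgs2* (the inducible cyclooxygenase) and *Areg* (the EGFR ligand amphiregulin) were also highest in 7KC-IMQ replicate 2 and lowest in Cont-IMQ replicate 1. The same held for *Serpinb2* (173, 290, 212 and 305 FPKM, in the library order used above), *Slc7a5* and *Nfe2l2*, but not for the rest of the list. These genes were named here after their values were seen. *Ptgs2* had 7.17, 15.7, 12.0 and 22.4 FPKM and *Areg* 20.3, 45.6, 20.8 and 62.7 FPKM, in the library order used above. Of the 6 neutrophil markers, 4 were highest in 7KC-IMQ replicate 2 as well, and none was at 0. Their sum was 13820 FPKM there, against 7223 in 7KC-IMQ replicate 1 and 2580 and 2124 in the Cont-IMQ libraries, and it was mostly *S100a8* and *S100a9*, which inflamed keratinocytes also express. *Retnlg* was highest in 7KC-IMQ replicate 1 (3.38 FPKM, against 2.00 in 7KC-IMQ replicate 2), and *Mmp9* was lowest in 7KC-IMQ replicate 2 (1.55 FPKM, against 3.97 in Cont-IMQ replicate 2). Their part in the level of *Tiparp* was not tested.

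**Figure D3:**
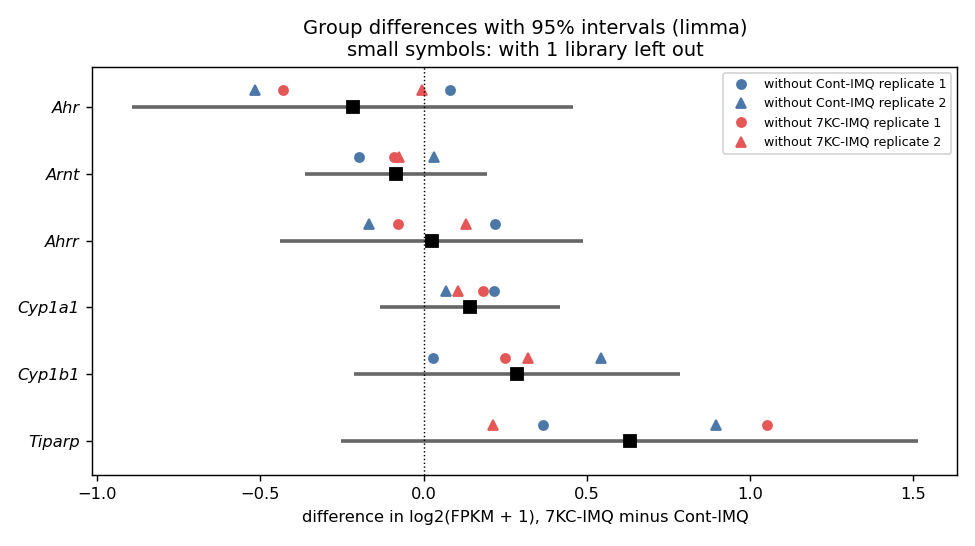
Difference in log2(FPKM + 1) between the groups (horizontal axis, 7KC-IMQ minus Cont-IMQ) for each AhR gene, with black squares for all 4 libraries, gray lines for the 95% interval of limma and small symbols for the value with 1 library left out. Each interval crosses 0, and the small symbols spread from 0.21 to 1.05 for *Tiparp* but only from 0.07 to 0.22 for *Cyp1a1*.

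In the order of their levels per length, *Tiparp* and *Arnt* were the highest pair in each library and *Ahrr* the lowest. *Tiparp* was above *Arnt* in 3 libraries and just below it in Cont-IMQ replicate 1, so this pair was not separated beyond its spread in the Cont-IMQ group. *Ahr*, *Cyp1a1* and *Cyp1b1* formed the middle, where *Ahr* ranked above both P450 genes in Cont-IMQ replicate 1, between them in Cont-IMQ replicate 2 and 7KC-IMQ replicate 1, and below both in 7KC-IMQ replicate 2. *Tiparp* was 1.46 to 6.63 times as high as *Ahr*, and 2.32 to 5.50 times as high as *Cyp1a1*. Reads shared with other genes were few, as at most 3.47% of the 75-base windows of a member (*Tiparp*) also occur in another annotated gene. *Ahr*, with Gm48236, and *Tiparp*, with 4931440P22Rik, overlap a gene of the opposite strand, and the strand setting of the counting is not given in the sources used here. *Arnt* overlaps Gm42672, a processed pseudogene of the same strand.

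Likeness to each member was measured as the root mean square distance of log2(FPKM + 1), centered on the Cont-IMQ mean, over the 4 libraries and 13110 genes with a mean of at least 1 FPKM. The nearest genes were *Klhdc8b*, *Adora3* and *Tmem177* for *Ahr* (distance 0.0148 to 0.0304), and *Pnisr*, *Ammecr1l* and *Jade2* for *Arnt* (0.00766 to 0.00851). They were *Matk*, *Mterf1a* and *Ripk2* for *Ahrr* (0.0131 to 0.0263), and *Preb*, *Eif4g1* and *Ube2m* for *Cyp1a1* (0.00618 to 0.00786). For *Cyp1b1* they were *Cep57l1*, *Rhno1* and *Begain* (0.0192 to 0.0305). *Tiparp* had no neighbor as close, with *Krt84*, *Pi15* and *Hilpda* at 0.108 to 0.120. With 4 libraries, many genes have a similar pattern, and no member was among the nearest genes of another.

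The genes around the receptor were described by 5 further lists. None of their genes passed the adjusted threshold by limma. The background for the counts given below for each list is 7.5% of all genes higher and 5.47% lower, taken before adjustment with the same 0.05 cutoff. Whether any list departed from these shares was not tested. Among the partners and chaperones of AhR, 10 of 10 genes were tested, with 1 higher and 1 lower at an unadjusted p-value under 0.05 and a median difference of 0.03. *Ptges3*, which encodes the co-chaperone p23, measured 93.8 and 100.04 FPKM without 7KC and 115 and 119 FPKM with it (log2 difference 0.27, standard error 0.07, adjusted p = 0.356 in limma). *Ncoa2*, a coactivator of nuclear receptors and of AhR, had 9.60 and 9.92 FPKM against 7.97 and 7.75 FPKM (-0.28, standard error 0.09, adjusted p = 0.365 in limma). In both genes the groups did not overlap. Of the 10 genes in this list, 2 were higher and 4 lower without overlap, beside 23.9% and 22.9% of all genes tested. *Hsp90ab1*, the most abundant gene of the list, overlapped, with 897 and 1008 FPKM against 989 and 995 FPKM.

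Of 15 other AhR target genes, 14 were tested, with 6 positive and 8 negative differences and a median of -0.05. At an unadjusted p-value under 0.05, 1 was higher and 2 were lower. The lower genes both encode enzymes of the classical AhR battery. *Aldh3a1*, an aldehyde dehydrogenase, measured 53.6 and 42.7 FPKM without 7KC and 36.7 and 28.3 FPKM with it, without overlap (log2 difference -0.56, standard error 0.17, adjusted p = 0.364 in limma). *Ugt1a6a*, a glucuronosyltransferase whose exons are partly shared with other *Ugt1a* genes so that its level is uncertain, had 3.59 and 4.15 FPKM against 2.45 and 2.84 FPKM (-0.42, standard error 0.12, adjusted p = 0.356 in limma). The difference of *Aldh3a1* and *Ugt1a6a* thus had the opposite sign to that of *Cyp1a1*, *Cyp1b1* and *Tiparp*. However, *Nqo1*, *Ugt1a6b*, *Gsta1*, *Gsta2* and *Cyp2s1* of the same list, chosen outside the naming rule, overlapped between the groups. Their differences were 0.03, -0.69, -0.07, -0.64 and -0.42, respectively. *Nfe2l2*, the antioxidant response factor NRF2, had 63.6 and 70.5 FPKM against 76.1 and 82.1 FPKM (0.24, standard error 0.09, adjusted p = 0.382 in limma). *Serpinb2*, the most abundant gene of the list, overlapped between the groups, from 173 to 305 FPKM.

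Tryptophan metabolism supplies AhR ligands such as kynurenine. Of its 11 genes, 9 were tested, with 1 higher and 1 lower at an unadjusted p-value under 0.05 and a median difference of -0.04. *Tdo2*, which opens the tryptophan ring, measured 5.92 and 6.49 FPKM without 7KC and 4.26 and 3.37 FPKM with it (log2 difference -0.59, standard error 0.14, adjusted p = 0.356 in limma). *Slc3a2*, the heavy chain of the amino acid carrier that brings tryptophan into the cell, had 59.6 and 69.1 FPKM against 74.5 and 85.0 FPKM (0.31, standard error 0.11, adjusted p = 0.380 in limma). *Slc7a5*, the light chain of the same carrier, did not overlap either, with 31.0 and 42.9 FPKM against 45.7 and 48.6 FPKM (0.36, standard error 0.17, adjusted p = 0.447 in limma, chosen after its values were seen).

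Of 13 other bHLH-PAS factors, 8 were tested, with 1 higher and 1 lower at an unadjusted p-value under 0.05 and a median difference of -0.02. *Hif1a*, the hypoxia factor that also pairs with ARNT, was the most abundant of them. It measured 54.8 and 60.4 FPKM without 7KC and 74.7 and 97.7 FPKM with it (log2 difference 0.56, standard error 0.15, adjusted p = 0.356 in limma). Per length, *Hif1a* was 3.15 and 2.93 times as high as *Arnt* in the Cont-IMQ libraries and 4.18 and 5.52 times as high in the 7KC-IMQ libraries, a description with no test. *Npas2*, a clock factor, had 1.6 and 1.66 FPKM against 1.01 and 1.01 FPKM (-0.39, standard error 0.10, adjusted p = 0.356 in limma). *Epas1* of the same list, chosen after its values were seen, had 17.5 and 17.4 FPKM against 19.8 and 24.9 FPKM (0.33, standard error 0.13, adjusted p = 0.384 in limma). Of the 8 genes tested, 3 were higher and 3 lower without overlap, beside 23.9% and 22.9% of all genes tested.

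Of 10 epidermal barrier genes linked to AhR, 9 were tested, with none higher and 2 lower at an unadjusted p-value under 0.05 and a median difference of -0.08. *Ivl*, which encodes involucrin of the cornified envelope, measured 302 and 353 FPKM without 7KC and 215 and 233 FPKM with it (log2 difference -0.54, standard error 0.11, adjusted p = 0.352 in limma). *Flg2*, which encodes filaggrin-2, had 96.3 and 79.0 FPKM against 60.0 and 34.9 FPKM (-0.92, standard error 0.28, adjusted p = 0.360 in limma). *Lor*, which encodes loricrin and was the most abundant gene of the list, overlapped, with 1808 and 1187 FPKM against 1343 and 1436 FPKM. *Sprr1a* and *Sprr1b* differed in the other direction, by 0.31 and 0.75, with an unadjusted p-value of 0.0821 and 0.0708 in limma. *Hrnr* had a difference of -0.41, with an unadjusted p-value of 0.0518 in limma. *Sprr1a*, *Sprr1b* and *Hrnr* were chosen after their values were seen. Of the 9 genes tested, 3 had a positive and 6 a negative difference. Without overlap, 2 were higher and 3 lower, beside 23.9% and 22.9% of all genes tested. The list therefore held genes of both signs, as did each of the other lists.

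**Figure D4:**
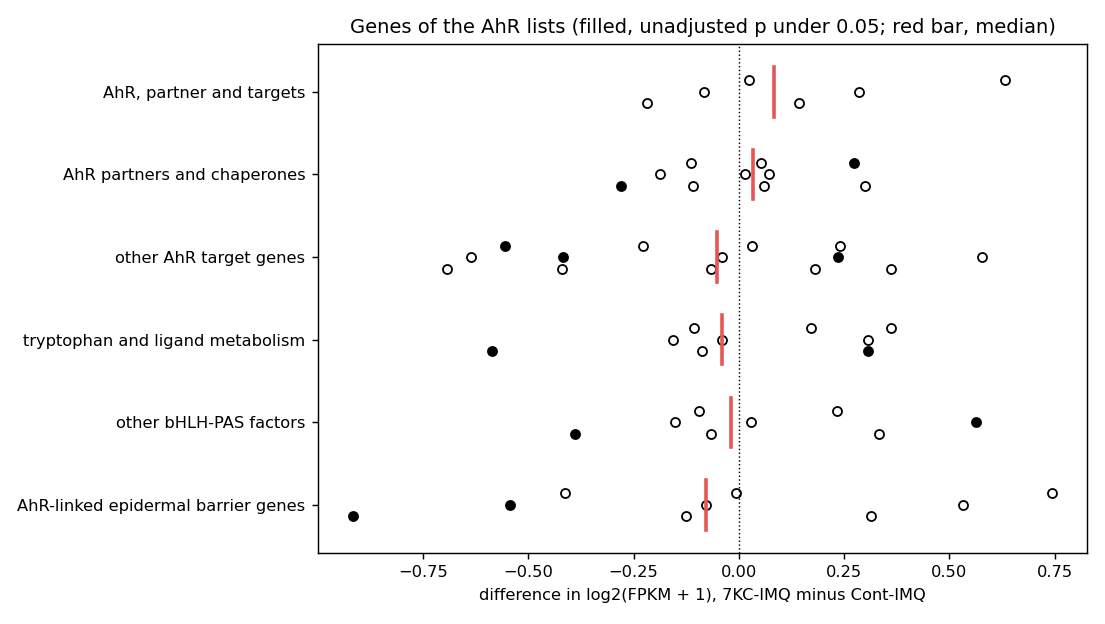
Difference in log2(FPKM + 1) between the groups (horizontal axis, 7KC-IMQ minus Cont-IMQ) for the tested genes of the AhR members and of the 5 further lists, with filled points for an unadjusted p-value under 0.05 in limma and red bars for the median. Each list has genes on both sides of 0, its median lies within 0.1 of 0, and none of the 6 members is filled.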

How the data were processed

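Total RNA of IMQ-treated dorsal skin was sequenced in 4 libraries. Single-end reads of 75 bases were aligned by the authors to mm10 (TopHat, Bowtie2, SAMtools), who deposited a file of FPKM per gene symbol for each library. The submitters' processing notes name TopHat2 2.1.1, Bowtie2 2.2.8, SAMtools 0.1.18 and Cuffdiff 2.2.1, whereas the paper names Cufflinks and other versions of the mapping tools. How multi-mapped reads were handled is not given in the sources used here.

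Genes averaging 0.1 FPKM or more were tested on log2(FPKM + 1), without further scaling, by limma 3.58.1 in R 4.3.3 with a variance trend, two-sided, at 0.05 after Benjamini-Hochberg adjustment. The test was checked on simulated data. The members and lists were chosen with earlier results of these data known. Genes named from a list were those at an unadjusted p-value under 0.05 with a mean of at least 1 FPKM (at most 5) and the most abundant one, and for each member the 3 nearest genes. Exceptions are marked.

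Depth was estimated from genes with a single GENCODE M21 transcript, assuming fragments of 200 bases. Between 75.1% and 78.0% of 461 to 477 low genes came within 0.1 of whole reads, where chance gives 20%. The estimated reads of a member assume its longest coding transcript and cover counting error only.

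The alternatives were a pseudocount of 0.1, a mean of at least 1 FPKM or no filter, median ratio scaling, equal FPKM sums, quantile normalization, limma without the trend, a replicate block, and the omission of each library. Protein sequences were not used here, and the lists' genes *Flg*, *Trdc*, *Tcrg-C1* and *Ly6g* were not analysed here.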

Additional observations from a re-analysis of the deposited data

How the results depend on the processing

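Over the 8 alternatives that keep all 4 libraries, 47 of 48 member differences kept their sign, and no member passed the adjusted threshold. The exception was *Ahrr*, at -0.013 with equal FPKM sums. The smallest adjusted p-value of a member under any alternative was 0.348 in limma (*Cyp1b1* without Cont-IMQ replicate 2). When single libraries were omitted, the log2 difference ranged from -0.52 to 0.08 for *Ahr*, -0.20 to 0.03 for *Arnt*, -0.17 to 0.22 for *Ahrr*, 0.07 to 0.22 for *Cyp1a1*, 0.03 to 0.54 for *Cyp1b1* and 0.21 to 1.05 for *Tiparp*. The reversed values were 0.0811 for *Ahr* without Cont-IMQ replicate 1, 0.0314 for *Arnt* without Cont-IMQ replicate 2, and -0.08 and -0.17 for *Ahrr* without 7KC-IMQ replicate 1 and without Cont-IMQ replicate 2. The number of members at an unadjusted p-value under 0.05 was 0 to 1, the number without overlap 2 to 6, since a lone library overlaps less often by construction, and the number of all genes called 1 to 9. The list medians ranged from -0.06 to 0.12 (partners and chaperones), -0.32 to 0.14 (other targets), -0.0631 to 0.133 (tryptophan), -0.0323 to 0.0029 (bHLH-PAS) and -0.38 to 0.19 (barrier).

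With a pseudocount of 0.1, 2 genes were called in place of 1. The tryptophan median of -0.04 became -0.0896 with equal FPKM sums, 0.171 with a mean of at least 1 FPKM, -0.0949 with the pseudocount of 0.1 and 0.023 with quantile normalization. The bHLH-PAS median of -0.02 became -0.0719, 0.0842, 0.0136 and 0.0155 under the same 4 alternatives. Fewer genes are tested with the stricter filter. With equal FPKM sums the median of all genes tested moved as well, from -0.0056 to -0.0664. Otherwise the cause was not tested.

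No source used here ties a replicate number to a shared litter or day, and with only 2 numbers the deviations of same-numbered libraries correlated at 0.078 over 13110 genes. With the replicate block, 1 member was under an unadjusted p-value of 0.05 (*Tiparp*, 0.0063, adjusted p = 0.426 in limma), and 1 gene was called, as without it. Equal FPKM sums moved the median of all genes to -0.07. With 2 libraries a group, the standard error of the members was 0.10 to 0.33, and differences of that size could not be detected. Much larger ones also went uncalled, such as 2.11 for *S100a8* (adjusted p = 0.352 in limma). The lack of a called member therefore does not show that these genes were unchanged.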
